A study of Mus musculus with 4 samples.

Results

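The genes described here are 34 genes of protein folding and the unfolded protein response in the endoplasmic reticulum (ER), the compartment in which secreted and membrane proteins are folded. They were chosen by symbol from a list of ER chaperones, oxidoreductases, stress sensors and degradation factors, and all 34 were found among the 22063 genes listed. By role they are 11 chaperones and their cofactors, 7 protein disulfide isomerases, 3 genes of prolyl isomerases and the translocon, 3 genes of stress sensors and their transcription factor, and 10 genes of ER-associated degradation (ERAD). Their mRNA was compared between 2 libraries labelled Scrambled, here called si-NC, and 2 libraries labelled *Itgb6*-siRNA, here called si-*Itgb6*. The si-NC libraries had a control siRNA (replicates 2 and 3, wild type). The si-*Itgb6* libraries had an siRNA against integrin beta 6 (replicates 1 and 3) in the same cell line. All 4 came from TKPTS cells, a mouse renal proximal tubular line which the labels spell TKPT, kept for 24 h at 1% O2 and 5% CO2 and then for 12 h in normal oxygen at 37 °C. None of the 4 libraries is normoxic, so the comparison is between the siRNAs only, and the effect of hypoxia on these genes cannot be read here.

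As background, proteins enter the ER through the Sec61 channel. They are then held by the HSP70 chaperone BiP and the HSP90 chaperone GRP94, bound by the lectins calnexin and calreticulin when they carry sugars, and given disulfide bonds by the protein disulfide isomerase family. When unfolded protein builds up, the sensors IRE1, ATF6 and PERK are activated. IRE1 splices the mRNA of XBP1, ATF6 is cut to release a transcription factor, and both routes raise the transcription of chaperone and ERAD genes, many of which carry an ER stress response element (ERSE) near their start site. Proximal tubular cells make and recycle many membrane proteins, and ER stress is well known in hypoxic kidney.

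The ERSE is known from several of these genes, and the matching stretches of the mouse promoters are shown before the values. RefSeq (GRCm38.p6) gave a window from 250 bases before to 50 bases after a start site for 30 of the 34 genes, in 36 windows, and none for *Derl1*, *Manf*, *Hyou1* and *Atf6*. The letters CCAAT and CCACG with any 9 bases between them, searched on both strands, were found in 9 of the 30 genes (30.0%) and in 37 of all 27025 genes with a window (0.137%). Among the genes tested for expression below, 15 of 9329 with a window (0.161%) held them. Since this element was defined on promoters of ER chaperone genes such as *Hspa5*, its presence in the list describes the list and is no result of the experiment. Each site is printed 5′ to 3′ on the strand that reads CCAAT to CCACG, with 5 flanking bases on either side and the fixed letters in capitals.
Hspa5: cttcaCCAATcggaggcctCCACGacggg
Pdia6: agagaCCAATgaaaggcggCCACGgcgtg
Canx: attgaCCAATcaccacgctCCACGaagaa
Hsp90b1, first: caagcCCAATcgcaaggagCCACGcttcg
Hsp90b1, second: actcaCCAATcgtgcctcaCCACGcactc
Calr: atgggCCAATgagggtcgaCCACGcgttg
Creld2: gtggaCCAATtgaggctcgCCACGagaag
Dnajc3: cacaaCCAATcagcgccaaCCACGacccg
Syvn1: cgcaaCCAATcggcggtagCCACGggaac
Derl3: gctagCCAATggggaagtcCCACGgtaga
The site of *Hspa5* lies at chr2:34772025-34772043 on the plus strand, 65 to 47 bases before the RefSeq start site. That of *Pdia6* lies at chr12:17266491-17266509 on the plus strand, 98 to 80 bases before its own. All distances here are from RefSeq start sites. Gene coordinates given further below are from the GENCODE annotation, which can place the start elsewhere. The *Hspa5* site thus lies inside the gene as GENCODE draws it, from chr2:34771970. The site of *Canx* lies at chr11:50325800-50325818 on the minus strand, 145 to 127 bases before the start. *Hsp90b1* alone among the 30 genes had 2 sites, at chr10:86705638-86705656 (minus strand) and chr10:86705533-86705551 (plus strand). The sites of *Calr*, *Creld2*, *Derl3* and the second of *Hsp90b1* read against the direction of their gene.

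A second form of the element, ERSE-II (ATTGG, any 1 base and then CCACG, on both strands), was found in *Herpud1* and *Dnajb11* and in 12 of all 27025 genes (0.0444%). Both sites are shown in the same way because they put a degradation gene and a BiP cofactor in the same set.
Herpud1: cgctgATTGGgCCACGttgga
Dnajb11: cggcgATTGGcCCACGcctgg
They lie at chr8:94386377-94386387, 52 to 42 bases before the start site, and at chr16:22857852-22857862, within the first 18 transcribed bases, both on the plus strand. No gene held both forms. The core of the element bound by XBP1, TGACGTG on both strands, was found in *Hspa5*, *Txndc5* and *Txndc11*. This is 10.0% of the 30 genes, against 2.22% of all genes and 3.40% of genes tested for expression. The ATF4-type letters TGATGNAA were found in *Herpud1* and *Txndc5* (6.67% of the 30 genes, against 4.51% of all genes and 2.59% of genes tested for expression). CCACG letters alone were found in 27 of the 30 genes (35.5% of all genes and 53.3% of genes tested for expression). Some of these are parts of the ERSE sites above. A match in letters is not a measured binding site.

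**Figure D1:**
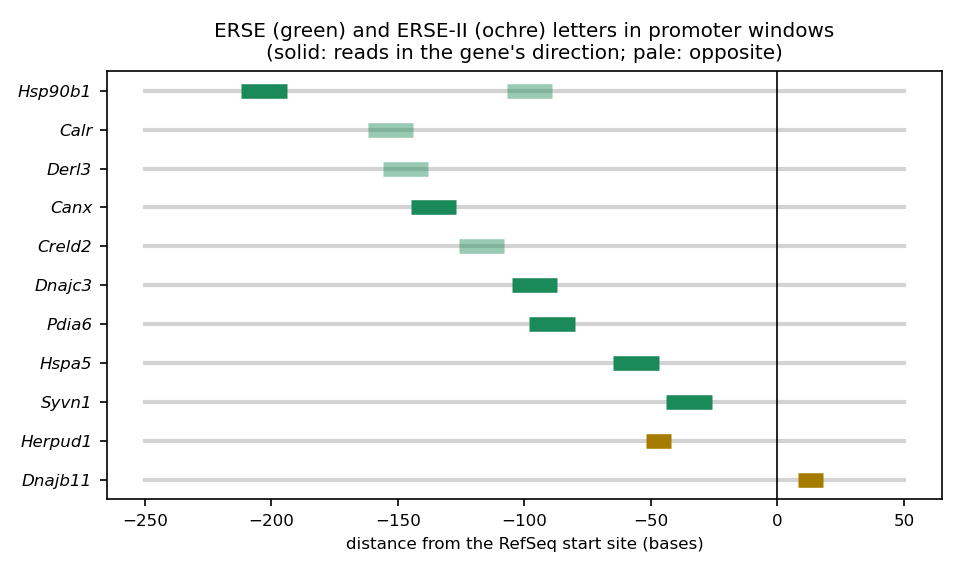
Place of the ERSE (green) and ERSE-II (ochre) letters in the promoter windows of the 11 genes that held them, with distance from the RefSeq start site in bases on the x axis and one gene per row; solid bars read in the direction of the gene and pale bars against it. All sites but that of *Dnajb11* lie before the start site, and *Hsp90b1* has 2.

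Some facts of the libraries bear on every value below. The totals were 15435074 to 17220281 counts, of which these 34 genes took 1.03% to 1.09%, and the libraries of a group differed by more than sampling noise (chi-square per gene 3.21 in si-NC and 4.08 in si-*Itgb6*). *Itgb6* itself had 285 and 284 counts in si-NC and 279 and 260 counts in si-*Itgb6* (log2 fold change -0.0051, adjusted p = 0.991, edgeR). The targeted mRNA was thus not lower by more than the spread, and the libraries are grouped by their labels throughout. The paper reports less integrin αvβ6 protein by western blot in hypoxic TKPTS cells given this siRNA. It also states that the siRNA was checked by qPCR. Of the renal epithelial markers 9 of 10 reached 1 FPKM (fragments scaled to gene length and depth) in every library, whereas of the proximal tubule markers only *Aqp1* did, with 4 of 11 at 0 in all libraries. The labelled cell type was thus not borne out by its defining markers, among them *Slc34a1*, *Slc5a2* and *Slc22a6* at 0 and *Lrp2* with at most 17 counts. No marker of fibroblasts (0 of 7), endothelium (0 of 5) or distal segments (0 of 5) reached 1 FPKM in every library, although *Cdh5* had 2.01 FPKM in si-*Itgb6* replicate 3. Of the macrophage markers 2 of 8 did, *Cd68* at 78.8 to 93.0 FPKM and *Csf1r* at 5.56 to 11.8 FPKM, while *Ptprc* and *Adgre1* had at most 6 and 1 counts. Deposited FPKM did not always follow the counts of a gene. *Cdh5* had 66 counts in si-*Itgb6* replicate 3, and 61 counts with 0.887 FPKM in si-NC replicate 3. *Csf1r* had 11.8 FPKM on 418 counts in si-*Itgb6* replicate 1, and 7.08 FPKM on 449 counts in si-NC replicate 2. The summed FPKM of the macrophage list was 92.7 and 100.03 in si-NC and 93.3 and 84.5 in si-*Itgb6*. That of the proximal tubule list was 11.4 and 13.2 in si-NC and 17.4 and 17.5 in si-*Itgb6*, nearly all of it *Aqp1* (9.09 and 10.5 against 14.8 and 14.4 FPKM), and its part in the results was not tested. The methods speak of biologically independent replicates in general but do not say whether these libraries came from separate cultures. The p-values and intervals thus measure only the spread between these libraries. For each gene, the test estimates that spread in part from all genes tested.

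The ER genes differed widely in level. Per length and per library depth, 9 genes had a mean of 100 FPKM or more over the 4 libraries, 18 had 10 to under 100 FPKM, and 7 had less. The highest was *P4hb*, the founding protein disulfide isomerase, with 821 and 836 FPKM in the si-NC pair (replicates 2, 3) and 835 and 842 FPKM in the si-*Itgb6* pair (replicates 1, 3), rank 108 of all genes listed. *Hspa5*, which encodes BiP, followed with 661, 625, 689 and 746 FPKM in the same order, and *Hsp90b1*, which encodes GRP94, with 606, 580, 613 and 622 FPKM. *P4hb* lay above *Hspa5* in each of the 4 libraries, as *Hspa5* lay above *Hsp90b1*. At the other end, *Derl3*, a Derlin of secretory cells, had 0 and 1 counts in si-NC and 0 and 0 counts in si-*Itgb6*. It is at or under a floor of 3 counts in every library, was not tested, and no fold change is given for it. *Ern1*, the gene of IRE1, had 3.16, 4.34, 3.02 and 3.91 FPKM, and *Dnajb9*, a BiP cofactor that restrains IRE1, had 4.54, 4.53, 4.61 and 4.48 FPKM. *Dnajb9* lay above *Ern1* in every library, while *Sel1l* and *Syvn1*, partners in the same ubiquitin ligase, overlapped at 6.95 to 9.62 and 6.13 to 8.43 FPKM.

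**Figure D2:**
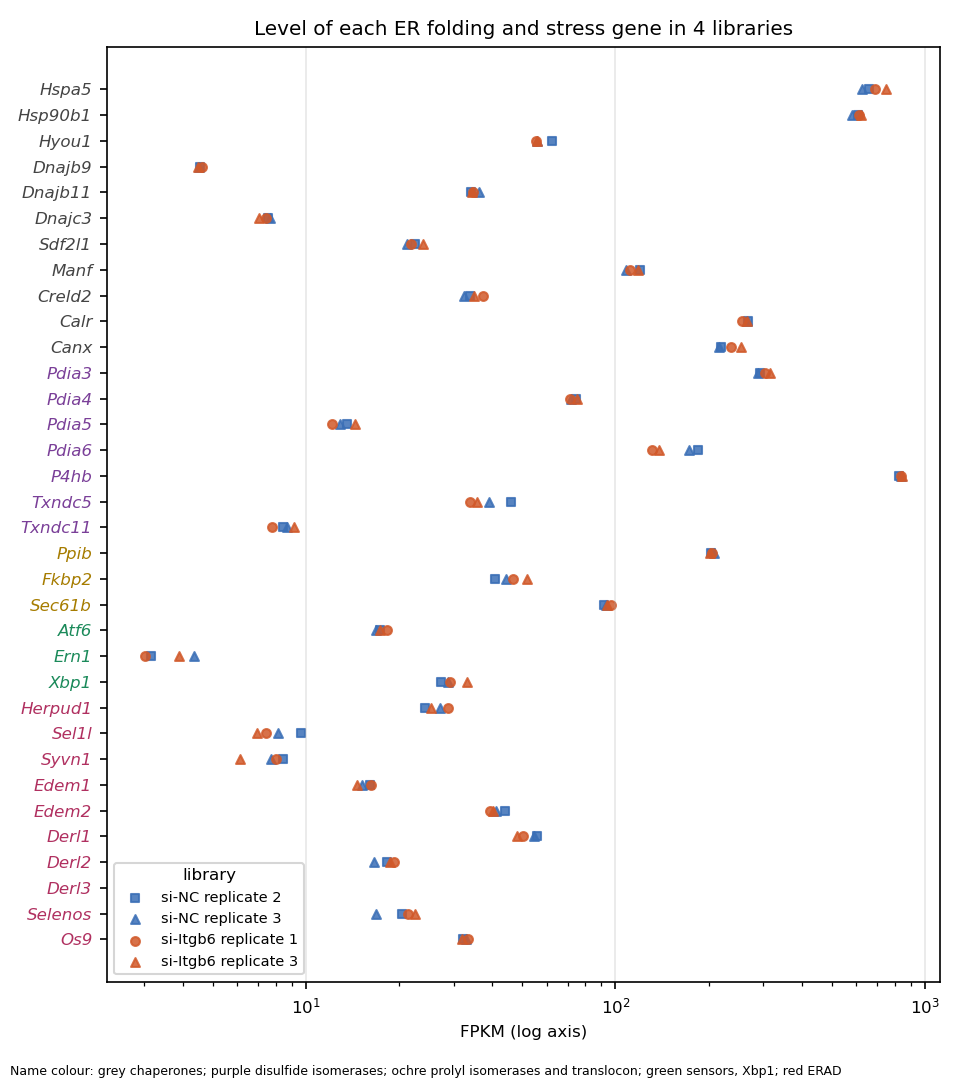
FPKM of each of the 34 genes (log x axis) in each library, one row per gene, with si-NC in blue and si-*Itgb6* in orange and the shape giving the replicate; name colours give the role, and *Derl3* has no marks since a log axis cannot show 0 (its 1 count is 0.044 FPKM). The spread between genes, from 3.60 FPKM for *Ern1* to 834 FPKM for *P4hb* as means, is far wider than that between libraries of any gene tested.

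Between the siRNAs, most of these genes differed little and those that did moved both ways. The fit was edgeR's quasi-likelihood test over the 11727 genes that passed the filter on low counts, and 33 of the 34 genes were among them. By the study's thresholds, p under 0.05 without adjustment and more than a 1.2-fold change, 3 of the 33 genes were lower in si-*Itgb6* (*Pdia6*, *Sel1l* and *Txndc5*), beside 5.2% of all genes tested and 9.57% in either direction. None was higher by those thresholds with edgeR or DESeq2, beside 4.37% of all genes, and an unadjusted p under 0.05 alone was reached by 4 lower and 5 higher genes (18.4% of all genes in either direction). Over all genes tested, this fit called 610 lower and 512 higher by the study's thresholds. The paper counts fewer in each direction by them, so the calls given here are not the paper's own list. With the Benjamini-Hochberg adjusted p of the same test under 0.05 and no threshold on size, 2 genes were lower (*Pdia6* and *Txndc5*) and 2 were higher (*Hspa5* and *Canx*), beside 2.52% and 2.11% of all genes (4.62% in either direction). The numbers of called genes are too small to set apart from those shares. Over the 33 genes the median log2 fold change was 0.018, with 14 below 0 and 19 above, and over all genes tested it was 0.00017. No overlap between si-NC and si-*Itgb6* libraries was seen in 18 of the 33 genes (54.5%), as in 49.2% of all genes. Of the 30 genes that the study's thresholds did not call, 19 had a 95% interval that lay within a 1.2-fold change either way, and the other 11 had intervals that reached past it.

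**Figure D3:**
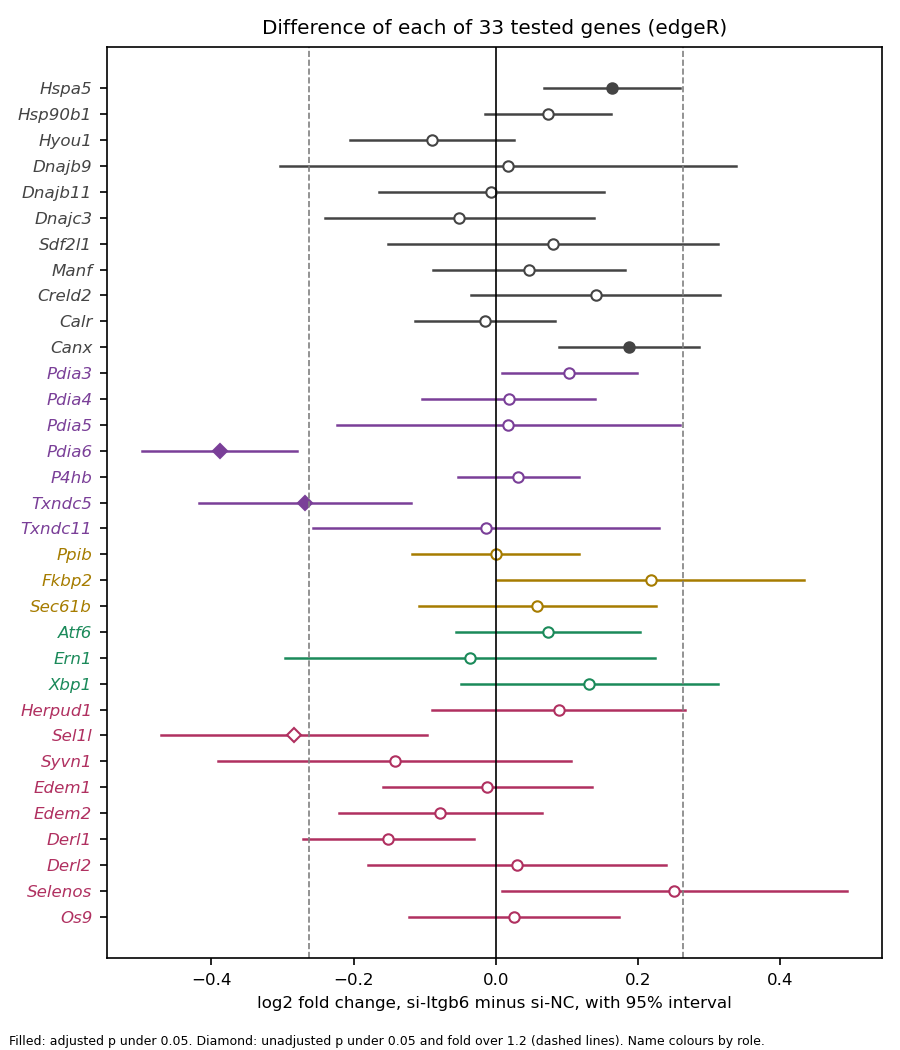
Log2 fold change (si-*Itgb6* minus si-NC, x axis) of the 33 genes tested, with 95% intervals from edgeR's quasi-likelihood test, 2 libraries per group; dashed lines mark a 1.2-fold change, diamonds pass the study's thresholds and filled marks have an adjusted p under 0.05. Values run from -0.39 for *Pdia6* to 0.25 for *Selenos*, and *Hspa5* and *Canx* are the filled marks above 0.

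The disulfide isomerases held the largest difference. *Pdia6* (ENSMUSG00000020571, chr12:17266545-17284770, plus strand, GRCm38), an oxidoreductase that works with BiP and is known to act on the luminal domain of IRE1, had 6398 counts in si-NC replicate 2 and 6378 in replicate 3, against 4357 in si-*Itgb6* replicate 1 and 4945 in replicate 3. Both si-*Itgb6* libraries were well below both si-NC libraries, and the groups did not overlap. Scaled to library size (normalised counts, CPM), this was 381 ± 16.3 CPM in si-NC and 291 ± 13.3 CPM in si-*Itgb6* (SD, n = 2), which is 1.31-fold lower. On the log2 scale this was -0.39 (SE 0.05, 95% interval -0.50 to -0.28, adjusted p = 3.2e-05, edgeR, Benjamini-Hochberg). It ran from -0.43 to -0.34 with each library left out in turn. Exons of *Pdia6* overlap those of *Atp6v1c2* on the other strand, and the libraries are not stranded, but *Atp6v1c2* was given only 56 to 70 counts per library.

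*Txndc5* (ENSMUSG00000038991, chr13:38500079-38528824, minus strand), an ER thioredoxin-domain isomerase that also serves collagen folding, had 2098 and 1892 counts in si-NC and 1480 and 1680 counts in si-*Itgb6*. The groups did not overlap, although the si-NC libraries stood further apart than those of *Pdia6*. The log2 fold change, -0.27 (SE 0.07, adjusted p = 0.0283, edgeR), lay just past a 1.2-fold change. Without si-NC replicate 2 it was -0.15, and without si-*Itgb6* replicate 1 it was -0.22. With DESeq2 the adjusted p was 0.0614. With the trends on GC content and length removed the log2 fold change was -0.23 with an adjusted p of 0.103. Its exons overlap those of *Gm31834* and of *Bmp6*, the latter with 16 to 35 counts per library.

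The other 5 disulfide isomerases were not called by either rule, with log2 fold changes from -0.01 to 0.10. *Pdia3*, the partner of calnexin and calreticulin on glycoproteins, had 807 and 798 CPM in si-NC and 840 and 884 CPM in si-*Itgb6* (log2 fold change 0.10, adjusted p = 0.223, edgeR). *P4hb* had 2334, 2384, 2382 and 2440 CPM (log2 fold change 0.03, 95% interval -0.05 to 0.12). *Pdia4*, *Pdia5* and *Txndc11* had log2 fold changes between -0.01 and 0.02, and their groups overlapped. Within the family, the ratio of *P4hb* to *Pdia6* FPKM was 4.45 and 4.83 in si-NC and 6.35 and 6.09 in si-*Itgb6*. For *Pdia3* to *Pdia6* the ratios were 1.59, 1.67, 2.31 and 2.28. These ratios are given without a test and restate the difference in *Pdia6*.

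**Figure D4:**
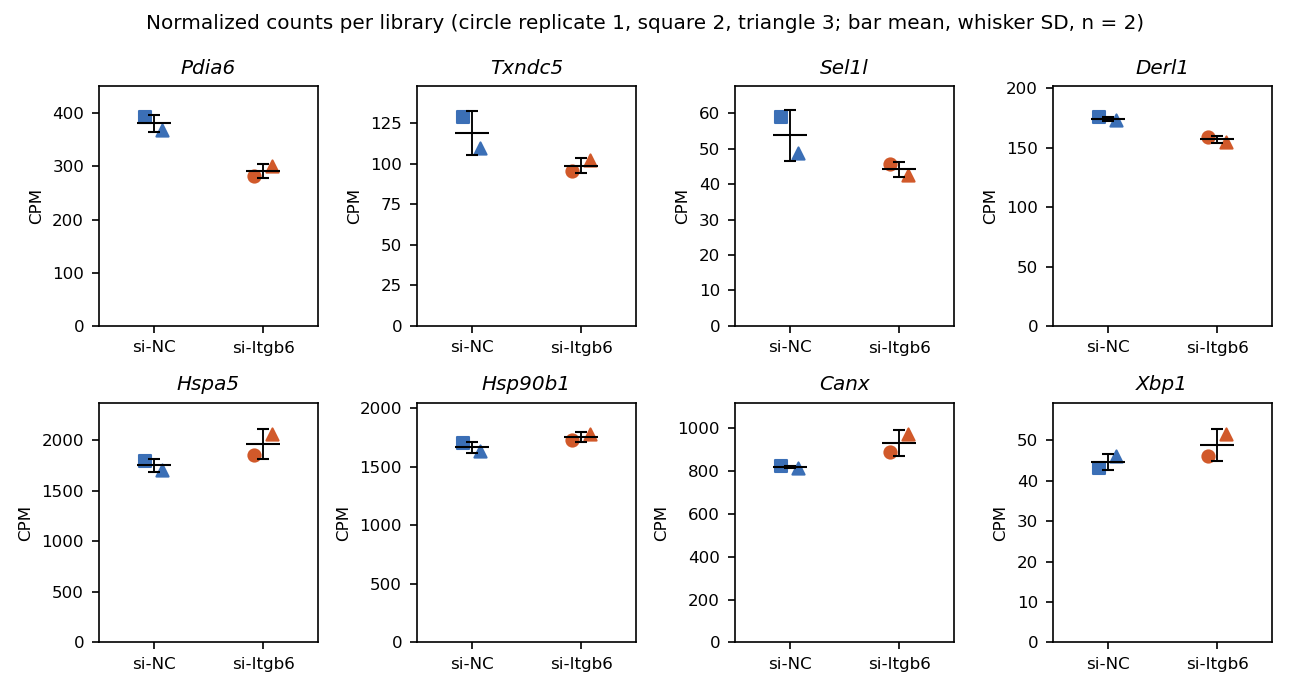
Normalised counts (CPM, axes from 0) of 8 ER genes in each library, with si-NC in blue and si-*Itgb6* in orange; circles are replicate 1, squares replicate 2 and triangles replicate 3, the bar is the mean and the whisker the SD (n = 2). *Pdia6*, *Txndc5*, *Sel1l* and *Derl1* in the upper row are lower in both si-*Itgb6* libraries than in both si-NC libraries, and in the lower row *Hspa5*, *Hsp90b1*, *Canx* and *Xbp1* lie above, with *Xbp1* of si-*Itgb6* replicate 1 only just so.

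Among the 11 chaperones and cofactors, none passed the study's thresholds and 2 were higher by the adjusted p, both by less than 1.2-fold. *Hspa5* (ENSMUSG00000026864, chr2:34771970-34777547, plus strand), the BiP gene, had 29290 and 29442 counts in si-NC and 28752 and 33958 counts in si-*Itgb6*. Scaled to library size these were 1795 and 1704 CPM against 1857 and 2062 CPM, so that the groups did not overlap but si-*Itgb6* replicate 1 lay close to si-NC replicate 2. This is a log2 fold change of 0.16 (SE 0.05, 1.12-fold, 95% interval 0.07 to 0.26, adjusted p = 0.0392, edgeR, Benjamini-Hochberg). The adjusted p was 0.0508 with the likelihood ratio test, 0.0521 with the exact test of edgeR and 0.0947 once trends on GC and length were taken out. Without si-*Itgb6* replicate 3 the log2 fold change was 0.09 with an adjusted p of 0.194, and the call was lost too without si-NC replicate 2 (adjusted p = 0.331) or replicate 3 (adjusted p = 0.396).

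*Canx* (ENSMUSG00000020368, chr11:50293961-50325673, minus strand), which encodes the membrane lectin calnexin, had 13415 and 14072 counts in si-NC and 13764 and 16047 counts in si-*Itgb6*. In CPM this was 822 and 814 against 889 and 974, again with no overlap and with si-*Itgb6* replicate 3 the highest. The resulting log2 fold change, 0.19 (SE 0.05, 1.14-fold, adjusted p = 0.0198, edgeR), was the largest among the chaperones. Leaving out si-NC replicate 2 gave a log2 fold change of 0.19, and leaving out si-NC replicate 3 gave 0.18. It was 0.12 without si-*Itgb6* replicate 3 and 0.25 without si-*Itgb6* replicate 1. The longest *Canx* transcript has a GC content of 42.2%, below the 49.8% median of genes tested, and fold changes over all genes fell with GC content (rho -0.364 by rank; genes are not independent of each other), though not over the 33 genes here (rho 0.001). With those trends removed *Canx* stood at 0.13 with an adjusted p of 0.145.

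*Calr*, the soluble counterpart of calnexin, had 581 and 580 CPM in si-NC and 559 and 589 CPM in si-*Itgb6* (log2 fold change -0.02, 95% interval -0.11 to 0.08). The *Calr* to *Canx* ratio of FPKM was 1.23 and 1.23 in si-NC and 1.09 and 1.05 in si-*Itgb6*. *Hsp90b1* had 27749 and 28220 counts in si-NC and 26736 and 29349 counts in si-*Itgb6*. Its CPM of 1701 and 1633 against 1726 and 1782 gave a log2 fold change of 0.07 (SE 0.04, 95% interval -0.02 to 0.16, adjusted p = 0.380, edgeR), and whether it differs from *Hspa5* in this was not tested. *Hyou1*, the ER nucleotide exchange factor also induced in low oxygen, had 267 and 242 CPM against 238 and 240 CPM (log2 fold change -0.09, adjusted p = 0.419). *Creld2*, a small secreted ER stress protein, stood at 0.14 with 46.0 and 44.1 CPM against 50.9 and 48.4 CPM (adjusted p = 0.401). The other 5, the J-domain cofactors *Dnajb9*, *Dnajb11* and *Dnajc3*, the BiP-associated *Sdf2l1* and the secreted factor *Manf*, had log2 fold changes between -0.05 and 0.08.

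None of the 3 sensor genes passed either rule. *Atf6*, the membrane-bound transcription factor, had 2042 and 2096 counts in si-NC and 2042 and 2099 counts in si-*Itgb6*, with a log2 fold change of 0.07 (95% interval -0.06 to 0.20, adjusted p = 0.594, edgeR). *Ern1* had 290 and 367 counts against 282 and 327 counts, and its groups overlapped (log2 fold change -0.04, 95% interval -0.30 to 0.22). *Xbp1* had 704 and 796 counts against 714 and 850 counts, or 43.2 and 46.07 CPM against 46.11 and 51.6 CPM (log2 fold change 0.13, adjusted p = 0.459). Counts per gene do not tell the spliced from the unspliced *Xbp1* mRNA and hold nothing on cleavage of ATF6, so the activity of the sensors was not measured.

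In ERAD, which draws misfolded protein back into the cytosol for destruction, *Sel1l* was lower by the study's thresholds. *Sel1l* (ENSMUSG00000020964, chr12:91806043-91849157, minus strand), the adaptor of the HRD1 ubiquitin ligase, had 961 and 842 counts in si-NC and 707 and 704 counts in si-*Itgb6*. This was 53.8 ± 7.19 CPM against 44.2 ± 2.06 CPM (SD, n = 2), with no overlap but with si-NC replicate 2 standing apart at 58.9 CPM beside 48.7 CPM. In the fit it differed by -0.28 (SE 0.09, 1.22-fold lower, unadjusted p from edgeR 0.0042, adjusted p = 0.0693), and without si-NC replicate 2 it was -0.14. Its ligase partner *Syvn1* (HRD1) had 27.8 and 25.6 CPM against 27.5 and 20.9 CPM, and the groups overlapped (log2 fold change -0.14, adjusted p = 0.585).

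*Derl1*, a channel component of the same pathway, had replicates close to each other, with 176 and 173 CPM in si-NC and 159 and 155 CPM in si-*Itgb6*. Its log2 fold change of -0.15 (95% interval -0.27 to -0.03, adjusted p = 0.144, edgeR) was under the fold threshold and stayed between -0.17 and -0.13 with any library left out. *Selenos*, a selenoprotein of the retrotranslocation complex, had the highest value among the 33 genes, 0.25, with 24.3 and 19.97 CPM against 25.3 and 27.3 CPM. Its si-NC replicates were further apart (-0.28 on the log2 CPM scale) than its groups, the adjusted p was 0.253, and without si-NC replicate 3 it was 0.12. The mannosidase-like *Edem1* and *Edem2*, the lectin *Os9*, the stress-inducible *Herpud1* and the Derlin *Derl2* had log2 fold changes from -0.08 to 0.09 with adjusted p-values of 0.606 or more.

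Among the genes of prolyl isomerases and the channel, *Ppib* (cyclophilin B, a collagen folding enzyme) had a log2 fold change of -3e-05 with a 95% interval from -0.12 to 0.12, and was the only one of the 34 genes whose deposited counts were not whole. *Fkbp2* had 27.3 and 29.6 CPM in si-NC and 31.0 and 35.1 CPM in si-*Itgb6* (log2 fold change 0.22, adjusted p = 0.268, edgeR), and passed the study's thresholds once GC and length trends were removed, at 0.36. *Sec61b*, a subunit of the channel itself, stood at 0.06 (adjusted p = 0.761).

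Differences between replicates were of a size with many of those between the groups, here as over all genes. Si-*Itgb6* replicate 3 lay above replicate 1 in 21 of the 33 genes (50.4% of all genes tested), by a median of 0.06 on the log2 CPM scale, while over all genes tested this median was 0.0018. Si-NC replicate 3 lay above replicate 2 in 11 of the 33 genes, with a median of -0.05. In 16 of the 33 genes the difference between the si-*Itgb6* replicates was larger than the log2 fold change between the groups, a share of 48.5% beside 49.6% of all genes tested. All 7 disulfide isomerases were higher in si-*Itgb6* replicate 3 than in replicate 1, as were 8 of the 11 chaperones, 2 of the 3 sensor genes, 3 of the 9 ERAD genes and 1 of the 3 genes of prolyl isomerases and the channel.

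**Figure D5:**
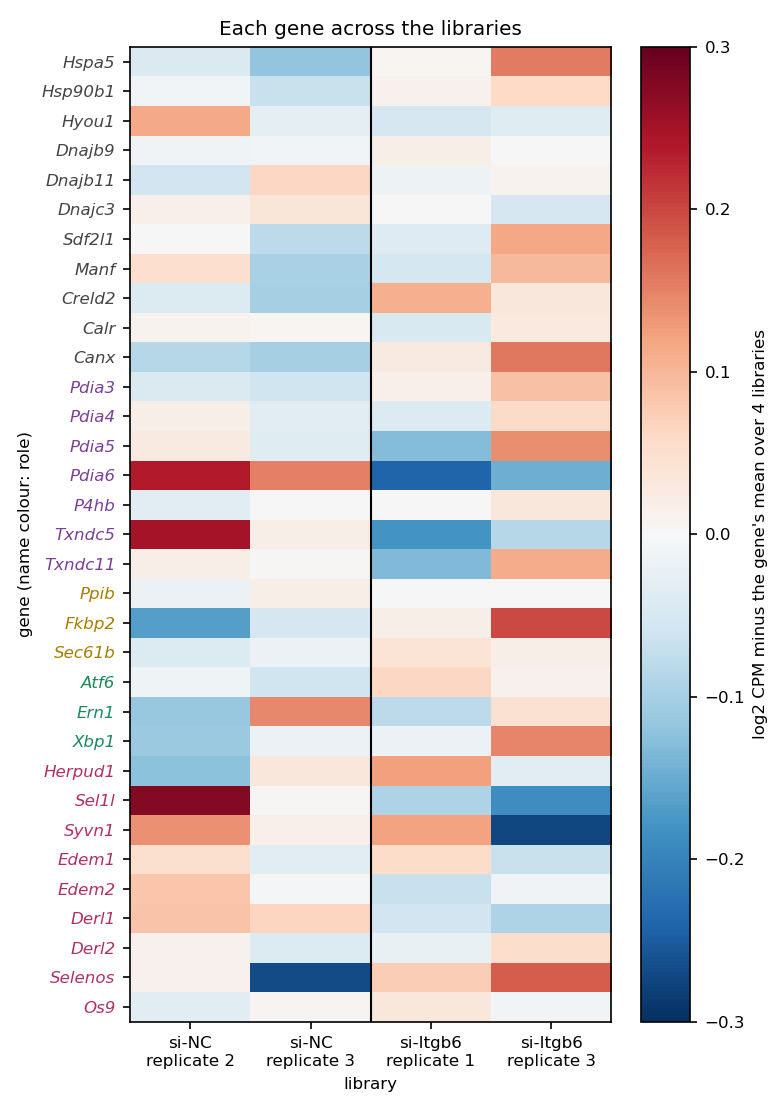
Log2 CPM of each of the 33 genes tested minus its mean over the 4 libraries (colour, from -0.3 in blue to 0.3 in red), with libraries in columns, genes in rows and name colours for the role. *Pdia6*, *Txndc5* and *Sel1l* are red in si-NC replicate 2, where the maximum over genes was 0.28, and *Hspa5*, *Canx* and *Fkbp2* are red in si-*Itgb6* replicate 3.

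Genes that carry the ERSE letters did not move one way. Of the 9, *Derl3* was not tested, 4 had log2 fold changes below 0 and 4 above, from -0.39 for *Pdia6* to 0.19 for *Canx*, with a median of 0.03. The 21 genes with a window and no such letters ran from -0.28 to 0.25 with a median of 0.02. These include *Herpud1* and *Dnajb11*, which carry the ERSE-II letters. The sites of *Pdia6*, *Syvn1* and *Hspa5* read in the direction of the gene and lie within 100 bases of the RefSeq start site. Their log2 fold changes were -0.39, -0.14 and 0.16, and the groups of *Syvn1* overlapped. Whether the site bears on these values was not tested.

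Other genes of the same pathway were taken from a list of 141 symbols of folding, glycan quality control, ERAD, translocation, the PERK arm and ATF6 processing, of which 135 were found and 129 tested. By the study's thresholds 6 of the 129 were lower in si-*Itgb6* and 3 were higher (5.2% and 4.37% of all genes). By the adjusted p 5 were lower and 1 was higher (4.65% together, beside 4.62% of all genes). *Ero1a*, the oxidase that recharges the disulfide isomerases and is induced by low oxygen, had 40699 and 37847 counts in si-NC and 28555 and 31286 counts in si-*Itgb6* (log2 fold change -0.32, SE 0.05, adjusted p = 0.0001, edgeR). It remained at -0.39 with GC and length trends removed, and without si-NC replicate 2 it was -0.23. Its paralogue *Ero1b* was higher by the study's thresholds, with 76 and 73 counts against 101 and 105 counts (log2 fold change 0.54, SE 0.22, adjusted p = 0.169, edgeR).

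The protease gene *Mbtps1*, whose product cuts ATF6, had 749 and 803 counts against 538 and 577 counts (log2 fold change -0.40, adjusted p = 0.0059, edgeR). *Wfs1*, an ER membrane protein linked to ATF6 turnover, had 1250 and 1399 counts against 965 and 953 counts (-0.39, adjusted p = 0.0019), and *Tmub1* of ERAD had 420 and 445 counts against 304 and 303 counts (-0.44, adjusted p = 0.0254). Once trends on GC and length were taken out, the adjusted p was 0.0209 for *Mbtps1*, 0.0628 for *Wfs1* and 0.126 for *Tmub1*. Without si-NC replicate 2 the adjusted p was 0.173, 0.0926 and 0.322 in the same order, and without si-NC replicate 3 it was 0.0885, 0.0868 and 0.152.

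In the PERK arm 1 of 12 genes was lower and 1 higher by the adjusted p (2.52% and 2.11% of all genes). By the study's thresholds 0 were lower and 2 were higher, *Ppp1r15b* among them (5.2% and 4.37% of all genes). *Ddit3*, which encodes the death-linked factor CHOP, had 1796 and 1933 counts in si-NC and 1391 and 1588 counts in si-*Itgb6* (log2 fold change -0.25, SE 0.07, adjusted p = 0.0271, edgeR). This is under a 1.2-fold change, so the study's thresholds did not call *Ddit3*. Each library left out in turn kept it between -0.30 and -0.20. *Ppp1r15b*, a subunit of the phosphatase that reverses PERK signalling, had 1327 and 1730 counts against 1870 and 1719 counts (log2 fold change 0.31, adjusted p = 0.0223), but 0.17 without si-NC replicate 2, and with DESeq2 the adjusted p was 0.358. *Atf4*, the transcription factor upstream of *Ddit3*, had 19542 and 22016 counts against 20038 and 21657 counts (log2 fold change 0.08, adjusted p = 0.370). *Eif2ak3*, which encodes PERK, had 250 and 246 counts against 227 and 218 counts (-0.08, adjusted p = 0.799). *Casp12*, an ER-linked caspase, had 8 and 13 counts against 7 and 11 counts, too few to show a difference.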

How the data were processed

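RNA-sequencing was used on 4 libraries (2 si-NC, 2 si-*Itgb6*), grouped by their labels. The authors enriched mRNA, made unstranded libraries and deposited estimated counts per gene, not normalized and not whole for 1447 to 1500 genes per library. The authors also deposited FPKM values, which were used for levels and in no test. The aligner, counter and genome build are not given in the sources used here.

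Counts were rounded, filtered with filterByExpr (minimum count 10, total 15), scaled by TMM and compared in edgeR 4.0.16 (R 4.3.3; glmQLFit, glmQLFTest), adjusting by Benjamini-Hochberg over 11727 genes. Standard errors came from the fold change and the F statistic. DESeq2 1.42.0 was an alternative, as were other edgeR tests, scalings, filters and thresholds, lowess trends on GC content and length (GENCODE vM21, GRCm38) as offsets, and leaving out each library. The test was run first on simulated data. Biological variation between libraries of a group had a common coefficient of 0.0551. Permuting the labels of 2 against 2 libraries gives a two-sided p of 0.3333 at the smallest. CPM were computed on TMM-scaled totals (15435074 to 17220281 counts before scaling).

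The genes and lists were chosen with earlier results of these data known, so counts over a list are descriptions. Values in every library are given for genes called by either rule, the sensors, *Hspa5*, *Hsp90b1* and the 3 highest and 3 lowest by FPKM. Of the other pathway list, those with an adjusted p under 0.05 and *Eif2ak3*, *Atf4*, *Ddit3* and *Casp12* are named. *Calr*, *Pdia3*, *Hyou1*, *Creld2*, *Syvn1*, *Derl1*, *Selenos* and *Fkbp2* were given library by library after their values were seen, and *Ero1b* was named then. The symbol *Ddit3* stands on 2 rows, 1 of them at 0 throughout and not used.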

Additional observations from a re-analysis of the deposited data

How the results depend on the processing

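No paired analysis was possible because the groups share only 1 replicate number, 3. Leaving out a library leaves 1 library in a group, and calls were then lost also where the fold change did not shrink. Of 258 values for single ER genes under the alternatives that keep all libraries, 242 kept direction and side of the adjusted threshold, 6 lost the call, 1 gained it and 9 reversed. The 3 lower genes became 0 at a fold over 1.5 and 1 to 3 with a library left out. The 0 higher genes became 1 after removal of GC and length trends and 0 to 2 with a library left out. By the adjusted p, the 2 lower genes became 1 with DESeq2 and 1 after removal of the trends (0 to 2 with a library left out), and the 2 higher genes became 1 with the likelihood ratio test, 1 with the exact test and 0 after removal of the trends (0 to 3 with a library left out). Of the other pathway genes, 6 lower became 0 at a fold over 1.5 (6 to 10 with a library left out), and 3 higher became 1 with DESeq2, 1 with the adjusted p and a fold over 1.2, and 0 at 1.5 (2 to 5 with a library left out). Leaving out a library moved the median from 0.0045 to 0.045 and *Itgb6* from -0.10 to 0.091. It also turned the sign of 11 ER genes and *Casp12*, none of them called. Their ranges were -0.065 to 0.058 for *Dnajb11*, -0.028 to 0.12 for *Manf*, -0.051 to 0.021 for *Calr*, -0.029 to 0.066 for *Pdia4*, -0.12 to 0.14 for *Pdia5*, -0.14 to 0.10 for *Txndc11*, -0.019 to 0.022 for *Ppib*, -0.16 to 0.10 for *Ern1*, -0.35 to 0.046 for *Syvn1*, -0.074 to 0.051 for *Edem1*, -0.0059 to 0.066 for *Derl2* and -0.46 to 0.20 for *Casp12*. After removal of the trends *Dnajb9* stood at -0.088, *Dnajb11* at 0.0044, *Pdia4* at -0.011, *Derl2* at -0.019 and *Ppib* at 0.019, and *Ppib* was also 0.0026 with DESeq2 and with RLE factors, 0.00042 with no filter and 0.0013 with 10 counts in every library. Except where a library or gene was dropped, the cause was not tested. With 2 libraries per group, differences over 1.2-fold remain possible for the 11 uncalled genes whose intervals reach past it, and smaller ones for the other 19.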

Other observations

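The deposited annotation gives a wider view through its KEGG term for protein processing in the ER, which was chosen after the data had been seen. It holds 173 genes, among them 26 of the 34 described above. Of the other 147 genes 131 were tested, of which 8 were lower and 6 were higher in si-*Itgb6* by the study's thresholds (6.11% and 4.58%, beside 5.2% and 4.37% of all genes). By the adjusted p 6 were lower and 5 were higher (8.40% together, beside 4.62% of all genes). Their median log2 fold change was 0.03.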
